A study of Homo sapiens and Mus musculus with 16 samples.

Results

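The genes described here are 9 members of the PARP family and DTX3L, the partner of PARP9: PARP1, PARP2, PARP3, PARP9, PARP10, PARP12, PARP14, TIPARP, ZC3HAV1 and DTX3L. They were chosen by symbol, as the rows of 2 deposited tables whose gene name equalled a member, with mouse capitalisation in the mouse table. All 10 were found among the 58713 genes listed for MDA-MB-231 and among the 53796 listed for CT26. All 10 also passed the filter on low values in both lines, which left 14450 and 11342 genes for testing. For the comparison between functions, 6 genes were grouped as interferon-linked (PARP9, PARP10, PARP12, PARP14, DTX3L and ZC3HAV1), 3 as DNA repair PARPs (PARP1, PARP2 and PARP3), and TIPARP was kept apart. Gene coordinates are given in hg38 (GENCODE 29) for MDA-MB-231 and in mm10, as deposited loci, for CT26.

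PARP enzymes transfer ADP-ribose from NAD onto proteins or nucleic acids, as single units or as chains. PARP1, PARP2 and PARP3 are activated by DNA breaks and help to recruit repair factors. Another branch of the family is induced by interferon and acts against viruses and in the control of interferon signalling, and its genes are widely used as members of interferon signatures in tumour cells.

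Total RNA was sequenced from 2 tumour cell lines: MDA-MB-231, from a human breast cancer of the triple-negative kind, and CT26, from a mouse colon carcinoma. In each, cells with a knockout (KO) of PD-L1 (Pd-l1 in mouse), made with lentiviral CRISPR, were set against wild type (WT) cells, with 4 libraries in each of the 4 groups. PD-L1, encoded by CD274, is the ligand through which tumour cells engage PD-1 on T cells. All cells were grown alone in serum-containing medium, and the labels name no interferon or other agent. Whether the KO cells were a clone or a pool, whether the WT cells carried a vector, and whether replicate libraries stem from separate cultures, are points that the sources used here leave out. All p-values therefore reflect spread between libraries that may be technical only.

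Values are the authors' FPKM (fragments per kilobase of transcript, per 1e6 fragments mapped) and log2 fold changes are KO minus WT on the log2(FPKM + 1) scale, which understates the change of low genes. A gene was called at a Benjamini-Hochberg adjusted p below 0.05 in limma, two-sided, over all genes tested in its line. Relative to WT replicate 1 of each line, estimated depth was 0.509 to 0.779 in the KO libraries and 0.941 to 1.21 in the other WT libraries of MDA-MB-231, and 0.926 to 2.49 in the KO libraries and 0.799 to 1.14 in the other WT libraries of CT26. CD274 itself averaged 10.6 ± 1.91 FPKM in KO and 12.2 ± 0.670 FPKM in WT MDA-MB-231 cells (SD, n = 4 each), a log2 fold change of -0.20 with limma adjusted p = 0.166. Cd274 averaged 0.526 ± 0.0552 FPKM in KO and 1.41 ± 0.127 FPKM in WT CT26 cells (SD, n = 4 each), a log2 fold change of -0.66 with limma adjusted p = 1.42e-04. An edit that disrupts a protein need not lower its transcript, so the level in MDA-MB-231 does not check the labels. Of the identity markers, MDA-MB-231 expressed VIM, CD44, KRT8 and KRT18 in both groups. However, all 8 tested identity genes were called changed, 2 higher and 6 lower in the KO (all tested genes, 42.6% and 25.7%). CD44 averaged 321 FPKM in KO and 1093 FPKM in WT cells, VIM 2545 FPKM in KO and 1113 FPKM in WT cells, KRT8 215 FPKM in KO and 399 FPKM in WT cells, EPCAM 11.98 FPKM in KO and 27.6 FPKM in WT cells, and CDH1 0.311 FPKM in KO and 4.15 FPKM in WT cells. The part of these shifts in the results was not tested. ESR1 and PGR averaged at most 0.0502 FPKM in either group. CT26 expressed Vim, Cd44 and Krt18, while the epithelial marker Epcam was listed at 0 in all 8 libraries and Krt8 averaged 0.145 FPKM in KO and 0.139 FPKM in WT cells. Of 6 identity genes tested in CT26, 4 were called higher and 1 lower in the KO (all tested genes, 22.3% and 33.5%). Their log2 fold changes ran from -0.26 for Erbb2 to 0.25 for Vim. Leukocyte markers summed to 0.427 to 0.944 FPKM in KO and 2.61 to 4.03 FPKM in WT libraries of MDA-MB-231, and to 49.6 to 56.5 FPKM in KO and 16.03 to 19.0 FPKM in WT libraries of CT26, where Cd14 made up nearly all of the sum. The log2 fold change was -1.11 for CD14 in MDA-MB-231 (limma adjusted p = 9.11e-05) and 1.59 for Cd14 in CT26 (limma adjusted p = 5.24e-07). The T cell marker CD3E and the B cell marker MS4A1 were at 0 in every library of both lines, and fibroblast and endothelial markers summed to 0.560 to 0.912 FPKM in KO and 1.68 to 2.38 FPKM in WT libraries of MDA-MB-231 and to 1.70 to 2.59 FPKM in KO and 0.917 to 2.08 FPKM in WT libraries of CT26. The part of these markers in the results was not tested.

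Promoter sequences are shown because a motif of the interferon response lies in most of the interferon-linked ones. The human promoter table of RefSeq (GRCh38.p14), which spans 250 bases before to 50 bases after each start, held windows for 9 of the 10 genes. They were searched on both strands for the core of the interferon-stimulated response element (ISRE), GAAANNGAAA, a sequence bound by interferon regulatory factors. The bases from 60 before the start to 20 from it are printed 5′ to 3′ in the gene's own direction, and capitals mark the ISRE core or its reverse complement.
PARP9, chr3:122564281-122564360, minus strand: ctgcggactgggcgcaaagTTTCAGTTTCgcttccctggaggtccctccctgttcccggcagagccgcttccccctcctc
DTX3L, chr3:122564278-122564357, plus strand: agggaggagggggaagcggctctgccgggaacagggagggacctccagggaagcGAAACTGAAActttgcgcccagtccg
PARP14, chr3:122680779-122680858, plus strand: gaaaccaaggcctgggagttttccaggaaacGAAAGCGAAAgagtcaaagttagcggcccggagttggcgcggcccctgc
PARP12, chr7:140062932-140063011, minus strand: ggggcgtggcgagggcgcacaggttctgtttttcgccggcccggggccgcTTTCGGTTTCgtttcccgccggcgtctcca
ZC3HAV1, chr7:139109701-139109780, minus strand: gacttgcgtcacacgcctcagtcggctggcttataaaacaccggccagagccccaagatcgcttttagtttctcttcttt
PARP1, chr1:226408074-226408153, minus strand: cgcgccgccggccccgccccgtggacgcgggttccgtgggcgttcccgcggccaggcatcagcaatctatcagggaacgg
The ISRE core was found in 4 of the 5 interferon-linked genes that had a window (PARP9, DTX3L, PARP14 and PARP12) and in 0 of the 3 DNA repair PARPs, against 3.57% of all 35116 promoter windows. PARP9 and DTX3L are divergent neighbours whose starts lie 38 bases apart, and the capitals in both printed sequences are the same 10 genomic bases, first base chr3:122564332. TIPARP had no match in its 3 windows, and neither did ZC3HAV1 or the second window of PARP9. The gamma-activated site TTCNNNGAA, a motif of the interferon gamma response, was found in the windows of PARP14, ZC3HAV1 and PARP2, against 7.66% of all windows, and it did not divide the genes by function. A match is a match of letters only, and an absent match concerns only this window.

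In MDA-MB-231 all 6 interferon-linked genes fell in the KO, with mean levels between 18.9% and 64.5% of the WT means, while PARP1 and PARP2 rose to 236% and 175% of the WT means. PARP3 did not pass the test. Of all 14450 genes tested, 25.7% were called lower (3711 genes) and 42.6% higher (6149 genes) in the KO. That balance depends on the scaling: 4851 were lower and 4736 higher after upper-quartile scaling, and 4559 were lower and 4593 higher after centring on 20 Mb windows. The median log2 fold change was -1.003 over the interferon-linked genes, 0.79 over the DNA repair PARPs and 0.18 over all genes. KO and WT values did not overlap for 8 of the 10 genes, against 62.7% of all genes tested. In bulk RNA a fall in every cell and a fall in the number of expressing cells cannot be told apart.

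**Figure D1:**
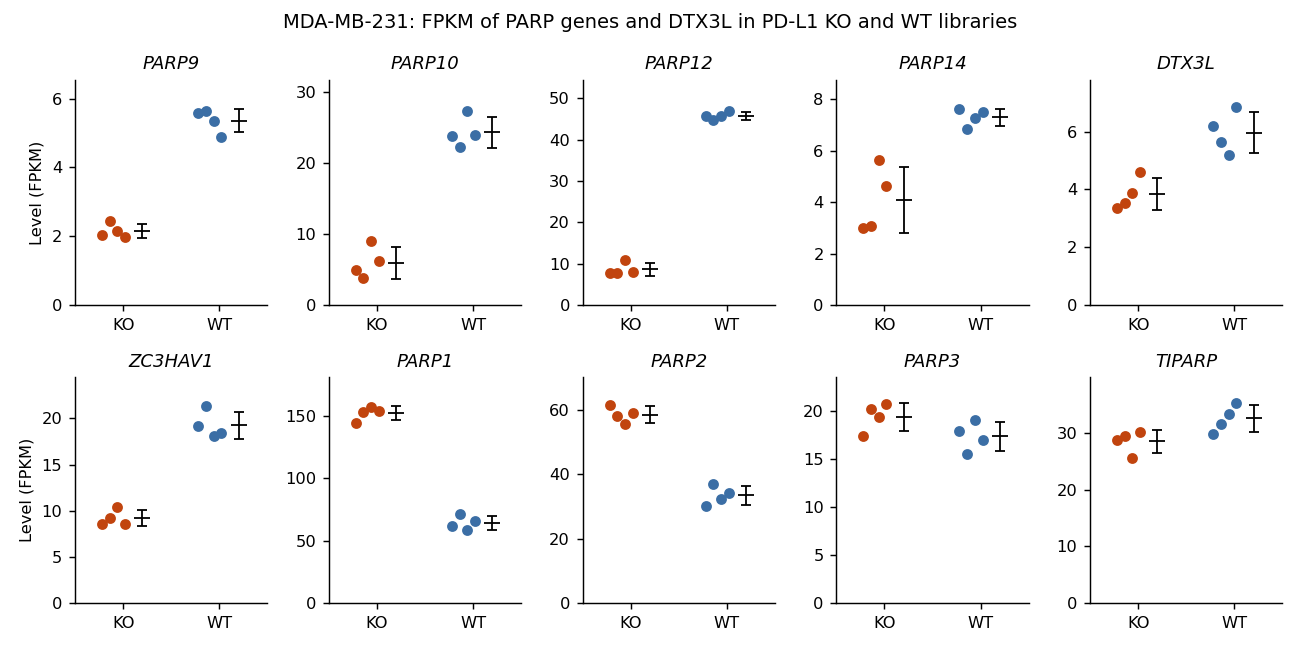
Levels (FPKM, linear axes from 0) of the 10 genes in the 4 KO and 4 WT libraries of MDA-MB-231; points are libraries and the black marks are mean ± SD. The 6 interferon-linked genes are lower in every KO library than in any WT library, PARP1 and PARP2 are higher, and PARP3 and TIPARP overlap.

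PARP12 (ENSG00000059378, chr7:140023744-140063721, minus strand), a zinc-finger mono-ADP-ribosyltransferase that restricts RNA viruses, had the largest fall of the 10. It read 7.85, 7.67, 10.97 and 8.13 FPKM in the KO libraries, against 45.7, 44.7, 45.7 and 47.0 FPKM in the WT libraries. KO replicate 3 stood above the other KO libraries, and all 4 lay far below the WT. The log2 fold change was -2.29 with SE 0.10 and limma adjusted p = 1.83e-07, or 18.9% of the WT mean.

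PARP10 (ENSG00000178685), a mono-ADP-ribosyltransferase first described as a partner of the transcription factor MYC, read 4.95, 3.82, 9.02 and 6.21 FPKM in the KO libraries, against 23.8, 22.3, 27.4 and 23.9 FPKM in the WT libraries. The KO values were spread (SD 2.24 FPKM), again with replicate 3 on top, and stayed under every WT value. Its log2 fold change was -1.91 with SE 0.20 and limma adjusted p = 3.63e-05. The deposited locus of this gene also holds other genes, so shared reads there cannot be told apart.

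PARP9 (ENSG00000138496), DTX3L (ENSG00000163840) and PARP14 (ENSG00000173193, chr3:122680618-122730840, plus strand) sit side by side on chromosome 3. PARP9 and DTX3L form a complex of a macrodomain protein and a ubiquitin ligase that strengthens interferon signalling and acts at DNA damage, and PARP14 is a large macrodomain mono-ADP-ribosyltransferase. PARP9 read 2.04, 2.44, 2.16 and 1.99 FPKM in the KO libraries, against 5.58, 5.64, 5.33 and 4.89 FPKM in the WT libraries. DTX3L read 3.37, 3.52, 3.87 and 4.61 FPKM in the KO libraries, against 6.17, 5.65, 5.17 and 6.83 FPKM in the WT libraries. PARP14 read 2.99, 3.09, 5.63 and 4.61 FPKM in the KO libraries, against 7.61, 6.85, 7.26 and 7.498 FPKM in the WT libraries. The groups did not overlap for any of the 3, although the highest KO values of DTX3L and PARP14 came close to the lowest WT ones. PARP9 had a log2 fold change of -1.01 (SE 0.088, limma adjusted p = 1.02e-05). The change was smaller for DTX3L, at -0.52 (SE 0.11, limma adjusted p = 0.00311), and for PARP14, at -0.74 (SE 0.17, limma adjusted p = 0.00359). At these low levels the pseudocount matters: with 5 in place of 1, the log2 fold changes were -0.53 for PARP9, -0.31 for DTX3L and -0.45 for PARP14, all still called. PARP9 (chr3:122527924-122564577, minus strand) and DTX3L (chr3:122564238-122575203, plus strand; hg38, GENCODE 29) overlap at their 5′ ends, and since no source used here states whether strand was used, reads from the overlap cannot be told apart.

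ZC3HAV1 (ENSG00000105939, chr7:139043520-139109719, minus strand), which encodes ZAP, a catalytically inactive PARP that binds CpG-rich viral RNA, read 8.59, 9.19, 10.4 and 8.53 FPKM in the KO libraries, against 19.2, 21.4, 18.1 and 18.4 FPKM in the WT libraries. The groups lay well apart. Its log2 fold change was -0.995 with SE 0.085 and limma adjusted p = 8.97e-06, which is 47.6% of the WT mean. TRIM25 and KHNYN, cofactors of ZAP, moved in opposite directions, with log2 fold changes of 0.38 (limma adjusted p = 0.0272) and -0.39 (limma adjusted p = 0.00457).

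PARP1 (ENSG00000143799, chr1:226360691-226408079, minus strand), the main DNA break sensor of the family, read 144, 153, 157 and 154 FPKM in the KO libraries, against 62.2, 71.3, 58.3 and 66.1 FPKM in the WT libraries. Every KO value was far above every WT value. The log2 fold change was 1.23 with SE 0.065 and limma adjusted p = 4.33e-07. PARP2 (ENSG00000129484, chr14:20343582-20357905, plus strand), which shares tasks with PARP1 in single-strand break repair, read 61.6, 58.2, 55.5 and 59.2 FPKM in the KO libraries, against 30.2, 36.9, 32.4 and 34.2 FPKM in the WT libraries. Again the groups were apart, with a log2 fold change of 0.79 (SE 0.068, limma adjusted p = 8.75e-06). RPPH1, an RNA gene in the same deposited locus as PARP2, had 0.10 (limma adjusted p = 0.783). PARP3 (ENSG00000041880, chr3:51942345-51948867, plus strand), a mono-ADP-ribosyltransferase linked to double-strand break repair, read 17.4, 20.2, 19.3 and 20.7 FPKM in the KO libraries, against 17.9, 15.5, 19.1 and 17.0 FPKM in the WT libraries. These ranges overlapped, and the log2 fold change of 0.15 (95% interval -0.034 to 0.34, limma adjusted p = 0.127) turned to -0.052 after upper-quartile scaling and to -0.26 after centring on 20 Mb windows.

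TIPARP (ENSG00000163659, chr3:156673235-156706770, plus strand), also called PARP7, is induced by the aryl hydrocarbon receptor and is known to dampen type I interferon induction. It read 28.9, 29.4, 25.6 and 30.1 FPKM in the KO libraries, against 29.9, 31.7, 33.4 and 35.4 FPKM in the WT libraries. KO replicate 4 lay above WT replicate 1, so the groups overlapped. The log2 fold change of -0.19 (SE 0.073, limma adjusted p = 0.0481) was called narrowly, and the call was lost in 6 of 8 fits that left out a library, with adjusted p up to 0.123, and with no filter on low values (limma adjusted p = 0.0740).

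In CT26 all 6 interferon-linked genes fell in the KO as well, with mean levels between 51.2% and 75.3% of the WT means, and the DNA repair PARPs divided, with Parp1 lower, Parp2 higher and Parp3 not called. Of all 11342 genes tested, 33.5% were called lower (3794 genes) and 22.3% higher (2534 genes) in the KO, and the balance turned after upper-quartile scaling, with 2840 lower and 3316 higher. The median log2 fold change was -0.52 over the interferon-linked genes, -0.14 over the DNA repair PARPs and -0.059 over all genes. As in MDA-MB-231, KO and WT values were apart for 8 of the 10 genes, against 51.5% of all genes tested.

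**Figure D2:**
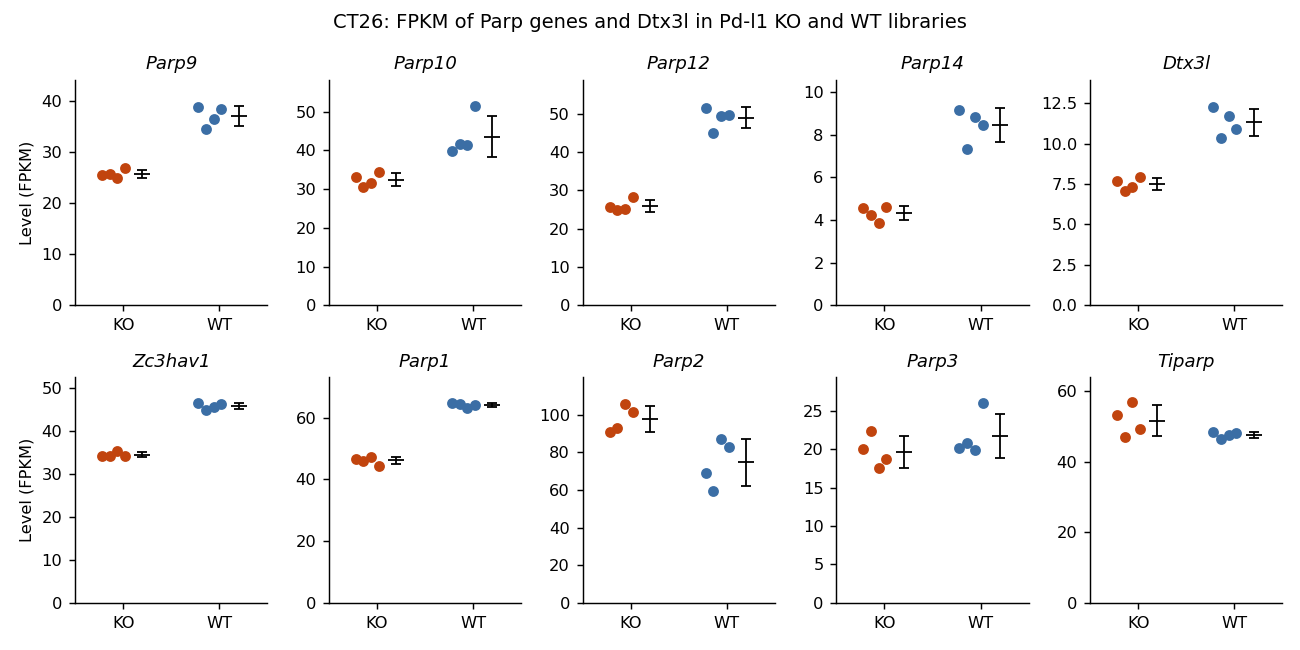
Levels (FPKM, linear axes from 0) of the 10 genes in the 4 KO and 4 WT libraries of CT26; points are libraries and the black marks are mean ± SD. The 6 interferon-linked genes and Parp1 are lower in every KO library than in any WT library, Parp2 is higher, and Parp3 and Tiparp overlap.

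Parp12 (ENSMUSG00000038507, chr6:39086410-39118349) read 25.6, 24.9, 25.1 and 28.3 FPKM in the KO libraries, against 51.4, 45.1, 49.5 and 49.8 FPKM in the WT libraries. Its KO mean was 53.1% of the WT mean, with a log2 fold change of -0.89 (SE 0.055, limma adjusted p = 4.73e-06). Parp14 (ENSMUSG00000034422, chr16:35832874-35871544) read 4.58, 4.24, 3.87 and 4.63 FPKM in the KO libraries, against 9.18, 7.32, 8.84 and 8.47 FPKM in the WT libraries. Its KO mean was 51.2% of the WT mean, with a log2 fold change of -0.82 (SE 0.080, limma adjusted p = 5.01e-05). Both genes had KO and WT values that stood clearly apart.

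Parp9 and Dtx3l, which are listed under the same deposited locus in mouse (mm10, chr16:35926511-36037131) together with Kpna1, fell to a like degree. Parp9 read 25.6, 25.6, 25.002 and 26.9 FPKM in the KO libraries, against 38.9, 34.6, 36.5 and 38.5 FPKM in the WT libraries. Dtx3l read 7.68, 7.06, 7.31 and 7.94 FPKM in the KO libraries, against 12.3, 10.3, 11.7 and 10.9 FPKM in the WT libraries. Neither gene had an overlap between the groups. The log2 fold changes were -0.51 for Parp9 (SE 0.046, limma adjusted p = 3.58e-05) and -0.53 for Dtx3l (SE 0.063, limma adjusted p = 1.62e-04).

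Zc3hav1 and Parp10 had the smaller falls of the group. Zc3hav1 (ENSMUSG00000029826, chr6:38305286-38354603) read 34.3, 34.1, 35.3 and 34.2 FPKM in the KO libraries, against 46.5, 44.8, 45.6 and 46.4 FPKM in the WT libraries. Its replicates lay close together, and a log2 fold change of -0.40 had an SE of 0.029 and a limma adjusted p = 1.11e-05. Parp10 (ENSMUSG00000063268, chr15:76170974-76243441) read 33.0, 30.6, 31.5 and 34.4 FPKM in the KO libraries, against 39.8, 41.8, 41.3 and 51.4 FPKM in the WT libraries. WT replicate 4 was high, but the other WT libraries also lay above every KO library. The log2 fold change was -0.41 (SE 0.081, limma adjusted p = 0.00264), while the q-value of Parp10 in the authors' deposited table, 0.131, missed 0.05. Trim25 fell by 0.73 on the log2 scale (limma adjusted p = 1.03e-06) and Khnyn rose by 0.50 (limma adjusted p = 1.55e-04), the reverse of the directions in MDA-MB-231.

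Parp1 (ENSMUSG00000026496, chr1:180568924-180601254) read 46.7, 46.1, 47.4 and 44.5 FPKM in the KO libraries, against 64.6, 64.5, 63.2 and 64.1 FPKM in the WT libraries. The groups were tight and apart, and the log2 fold change was -0.46 (SE 0.030, limma adjusted p = 5.47e-06), opposite to MDA-MB-231. Parp2 (ENSMUSG00000036023, chr14:50807841-50821301) read 91.0, 93.1, 105 and 102 FPKM in the KO libraries, against 69.2, 59.4, 87.0 and 82.8 FPKM in the WT libraries. WT replicates 3 and 4 came close to the lowest KO values, and the log2 fold change was 0.40 (SE 0.12, limma adjusted p = 0.0186), with a q-value of 0.136 in the authors' deposited table. Parp3 (ENSMUSG00000023249, chr9:106470322-106485424) read 20.1, 22.4, 17.5 and 18.7 FPKM in the KO libraries, against 20.2, 20.8, 19.96 and 26.0 FPKM in the WT libraries, with a log2 fold change of -0.14 (95% interval -0.37 to 0.094, limma adjusted p = 0.280). Tiparp (ENSMUSG00000034640, chr3:65507257-65555518) read 53.1, 47.1, 56.9 and 49.3 FPKM in the KO libraries, against 48.4, 46.3, 47.6 and 48.0 FPKM in the WT libraries, with a log2 fold change of 0.11 (95% interval -0.020 to 0.24, limma adjusted p = 0.132). Groups overlapped for both, and Tiparp passed the threshold after upper-quartile scaling, where its adjusted p was 0.0191.

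The order of levels within a line, compared per length as FPKM, also differed between genotypes. In MDA-MB-231 KO cells PARP1 (152 ± 5.60 FPKM, SD, n = 4), PARP2, TIPARP and PARP3 stood above all 6 interferon-linked genes, with no overlap between neighbours in that order. In WT cells PARP12 (45.8 ± 0.947 FPKM, SD, n = 4) ranked next to PARP1, PARP10 also stood above PARP3, and ZC3HAV1 overlapped with it. At the low end of the KO order, ZC3HAV1, PARP12, PARP10, PARP14 and DTX3L overlapped in sequence, and PARP9 lay below DTX3L without overlap. In WT cells PARP9 had the lowest mean and overlapped with DTX3L. In CT26 Parp2 ranked first in both groups, apart from Tiparp in KO cells and overlapping with Parp1 in WT cells, and Dtx3l and Parp14 were the lowest in both. Parp12, Tiparp, Zc3hav1 and Parp10 overlapped with one another in sequence in WT cells.

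The contrast of the interferon-linked genes with the DNA repair PARPs was taken within each library, as the mean log2(FPKM + 1) of the first minus that of the second, and is given as a description with no test. In MDA-MB-231 it averaged -3.24 ± 0.19 in KO and -1.26 ± 0.052 in WT libraries (SD, n = 4 each), and ran from -3.40 to -2.98 in KO and from -1.33 to -1.20 in WT libraries. Both means moved, since the interferon-linked mean was 2.45 to 2.85 in KO and 3.83 to 3.86 in WT libraries, and the repair mean was 5.78 to 5.88 in KO and 5.06 to 5.16 in WT libraries. In CT26 the contrast averaged -1.31 ± 0.075 in KO and -0.79 ± 0.081 in WT libraries (SD, n = 4 each). There the interferon-linked mean was 4.16 to 4.27 in KO and 4.70 to 4.84 in WT libraries, while the repair mean overlapped, at 5.50 to 5.55 in KO and 5.46 to 5.72 in WT libraries.

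**Figure D3:**
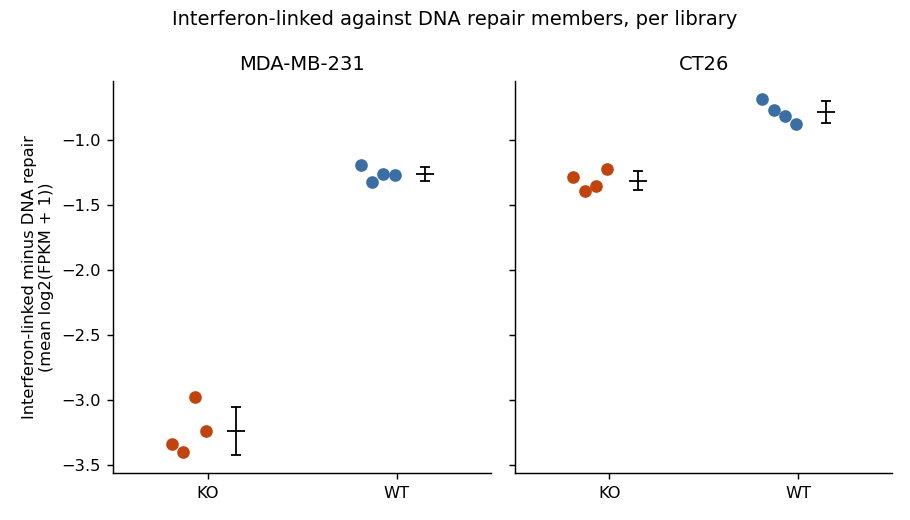
Mean log2(FPKM + 1) of the 6 interferon-linked genes minus that of the 3 DNA repair PARPs in each library, KO left of WT, for MDA-MB-231 and CT26; black marks are mean ± SD (n = 4). KO libraries lie below the WT libraries in both lines, with means of -3.24 in KO and -1.26 in WT for MDA-MB-231, and -1.31 in KO and -0.79 in WT for CT26 (levels are not compared between lines).

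Responses were then compared between the lines, as the MDA-MB-231 log2 fold change minus the CT26 one, in a single limma fit over 8667 genes paired by symbol. The difference was called for 7 of the 10 genes, against 72.2% of all paired genes, so differing between the lines was the usual outcome. PARP12 fell further in MDA-MB-231 by a difference of -1.40 (SE 0.12, limma adjusted p = 1.59e-08) and PARP10 by -1.49 (SE 0.22, limma adjusted p = 1.17e-05). ZC3HAV1 also fell further, with a difference of -0.60 (SE 0.091, limma adjusted p = 1.67e-05). For PARP9 the difference was -0.50 (SE 0.096, limma adjusted p = 1.66e-04), and with a pseudocount of 5 it was -0.082 and no longer called (limma adjusted p = 0.286), while upper-quartile scaling gave -0.76 and window centring -1.10. DTX3L and PARP14 did not differ detectably, with differences of 0.0097 (95% interval -0.27 to 0.29, limma adjusted p = 0.950) and 0.083 (95% interval -0.31 to 0.48, limma adjusted p = 0.703). Centring on 20 Mb windows turned these to -0.59 (limma adjusted p = 9.96e-04) and -0.51 (limma adjusted p = 0.0332).

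Among the DNA repair PARPs, PARP1 had the clearest difference of the 10 genes, 1.70 (SE 0.074, limma adjusted p = 3.42e-12), since it was called higher in MDA-MB-231 and lower in CT26. Over all settings this difference ran from 1.18 to 1.74. The call of Parp1 in CT26 was lost after window centring (limma adjusted p = 0.525). PARP2 rose in both lines and the difference of 0.40 (SE 0.14, limma adjusted p = 0.0151) shrank to 0.091 after upper-quartile scaling (limma adjusted p = 0.569). The difference of PARP3 was 0.29 (95% interval 0.0093 to 0.57, limma adjusted p = 0.0595) and reached -0.24 after window centring. TIPARP differed by -0.30 (SE 0.095, limma adjusted p = 0.00988), by -0.60 after upper-quartile scaling and by -1.14 after window centring.

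**Figure D4:**
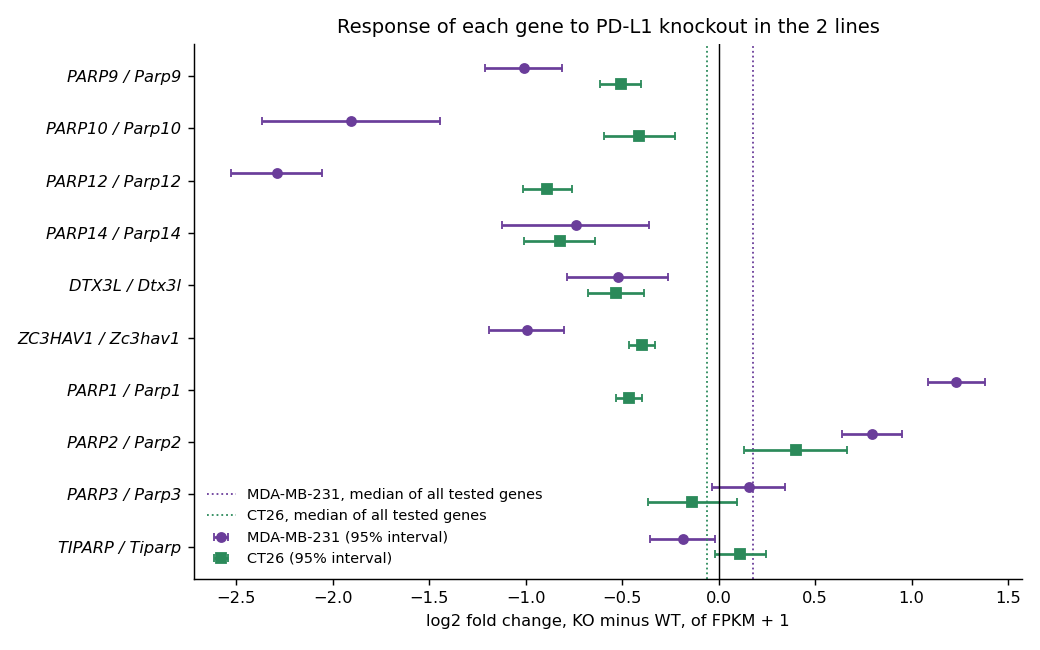
Log2 fold change, KO minus WT, of each gene on the log2(FPKM + 1) scale with its 95% interval, in MDA-MB-231 (circles) and CT26 (squares); dotted lines are the medians of all tested genes, 0.18 and -0.059. The 6 interferon-linked genes lie left of both dotted lines in both lines, PARP1 lies right of them in MDA-MB-231 at 1.23 and left in CT26 at -0.46.

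Genes around the members were examined to see whether a member moved with its surroundings. Around PARP9 in MDA-MB-231, the 49 other tested genes within 5 Mb had a median log2 fold change of 0.42, with 26 called higher and 6 lower. KPNA1, an importin gene, rose by 0.93 (limma adjusted p = 1.94e-05) and HSPBAP1 by 1.24 (limma adjusted p = 2.15e-05), on either side of PARP9, DTX3L and PARP14, which fell. After centring each gene on its 20 Mb window the log2 fold changes were -1.49 for PARP9, -1.003 for DTX3L and -1.22 for PARP14. PARP12 and ZC3HAV1, both on chromosome 7, had 50 and 55 such neighbours with medians of -0.11 and -0.14, and PARP10 had 78 with a median of -0.043. In CT26 the neighbours of the interferon-linked genes had medians between -0.14 and -0.066, and all 6 genes remained called lower after centring. Kpna1, in the same deposited locus as Parp9 and Dtx3l, fell with them there (log2 fold change -0.56, limma adjusted p = 0.00263), and Hspbap1 had -0.19 (limma adjusted p = 0.0423).

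The DNA repair PARPs Parp1 and Parp2 looked different in CT26. In CT26, 44 of the 55 tested genes within 5 Mb of Parp1 were called lower and 2 higher, with a median of -0.43 against -0.46 for Parp1 itself, and the centred log2 fold change of Parp1 was -0.026 (limma adjusted p = 0.525). Around Parp2, 53 of 81 genes were called higher and 3 lower, with a median of 0.31, and the centred value of Parp2 was 0.12 (limma adjusted p = 0.372). Neither call in CT26 held relative to the gene's own neighbourhood. In MDA-MB-231 the 71 genes around PARP1 had a median of 0.080 and the centred value of PARP1 was 1.15 (limma adjusted p = 2.81e-07). PARP2 had a centred value of 0.35 (limma adjusted p = 0.00190) next to 89 neighbours with a median of 0.50. Its uncentred 0.79 lay within the quartiles of those neighbours, -0.057 and 0.97. It was above 65.2% of them, and Parp2 in CT26 was above 60.5% of its own neighbours. PARP3 lay below its 131 neighbours, whose median was 0.35, and its centred value of -0.26 was called (limma adjusted p = 0.0251). TIPARP stood in a region where 35 of 39 genes were called higher, with a median of 1.28, and its centred value was -1.02 (limma adjusted p = 4.59e-06).

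**Figure D5:**
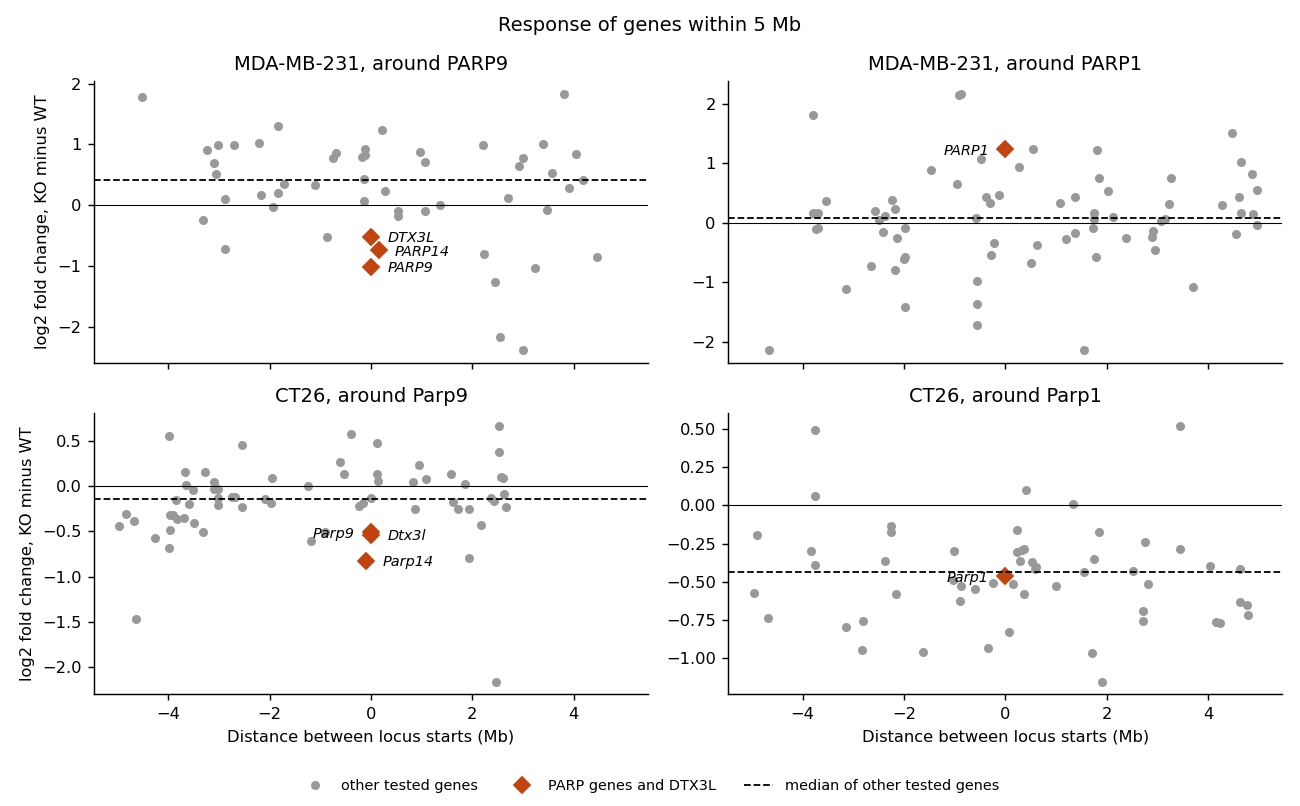
Log2 fold change, KO minus WT, of tested genes within 5 Mb of PARP9 (left) and PARP1 (right) in MDA-MB-231 (top) and CT26 (bottom), against the distance between locus starts in Mb; diamonds are PARP genes and DTX3L, grey points other tested genes, dashed lines the medians of the grey points. PARP9, DTX3L and PARP14 lie below medians of 0.42 and -0.14, PARP1 lies above 0.080 in MDA-MB-231, and Parp1 lies on the median of -0.43 in CT26.

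The genes around the family in its pathways were read from lists of relatives and partners. Their counts stand beside 25.7% of all tested genes lower and 42.6% higher in MDA-MB-231 (median 0.18), and 33.5% lower and 22.3% higher in CT26 (median -0.059). Of the receptors, kinases and factors of interferon signalling, 8 of 12 fell and 0 rose in MDA-MB-231 KO cells, with a list median of -0.55, and 8 of 12 fell and 3 rose (Jak2, Tyk2 and Irf9) in CT26 KO cells, with a median of -0.31. IRF7, the amplifier of the type I response, averaged 1.42 ± 0.325 FPKM in KO and 11.2 ± 0.809 FPKM in WT MDA-MB-231 cells (SD, n = 4 each; log2 fold change -2.34, limma adjusted p = 3.23e-07). In CT26 Irf7 averaged 86.3 ± 6.80 FPKM in KO and 249.9 ± 17.4 FPKM in WT cells (SD, n = 4 each; log2 fold change -1.52, limma adjusted p = 8.52e-07). IRF1 fell by 1.58 and STAT2 by 0.74 on the log2 scale in MDA-MB-231, and Stat2 by 0.77 in CT26.

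Of 12 repair partners of PARP1, PARP2 and PARP3, 7 rose and 2 fell in MDA-MB-231 KO cells, and 4 rose and 2 fell in CT26 KO cells, with medians of 0.21 and -0.090, against 0.18 and -0.059 over all genes. XRCC5 and XRCC6, the Ku subunits that bind double-strand ends, rose by 1.43 (limma adjusted p = 1.48e-06) and 0.92 (limma adjusted p = 1.59e-07) in MDA-MB-231, while APLF, which reads ADP-ribose chains, fell by 1.09 on the log2 scale. In CT26 Polb, a repair polymerase gene, rose by 0.46 and Aptx, an end-processing gene, by 0.49. POLB had a log2 fold change of -0.52 in MDA-MB-231 (limma adjusted p = 0.00289), and Xrcc5 had -0.24 in CT26 (limma adjusted p = 0.00321), each opposite to the other line. Of the enzymes that remove ADP-ribose, 4 of 5 tested rose in MDA-MB-231 (all genes, 42.6%), led by MACROD1 at 2.01 and PARG at 1.22, and in CT26 2 of 6 rose and 2 fell (all genes, 22.3% and 33.5%), with list medians of 0.64 and 0.083.

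Among the other PARP and tankyrase genes, 2 of 7 tested rose and 0 fell in MDA-MB-231 (all genes, 42.6% and 25.7%), PARP8 by 1.57 and TNKS2 by 0.95, with a list median of 0.22. In CT26, 2 of 7 rose and 3 fell (all genes, 22.3% and 33.5%), with log2 fold changes of -1.26 for Parp11, a mono-ADP-ribosyltransferase, -0.47 for Tnks2 and 0.47 for Parp4, and a list median of -0.21. PARP11 did not fall in MDA-MB-231, where its log2 fold change was 0.26 and not called (limma adjusted p = 0.180). Both tested Deltex relatives of DTX3L fell in MDA-MB-231, where DTX3 averaged 0.0967 ± 0.0667 FPKM in KO and 14.2 ± 1.51 FPKM in WT cells (SD, n = 4 each; log2 fold change -3.79, limma adjusted p = 1.05e-08) and DTX2 had -1.24. In CT26 Dtx2 fell by 0.39 on the log2 scale and Dtx3 was not called (0.060, limma adjusted p = 0.351). Of 6 aryl hydrocarbon receptor genes, the list for TIPARP, 2 fell and 1 rose in MDA-MB-231. CYP1B1, a target of the receptor, averaged 1.76 ± 0.845 FPKM in KO and 132 ± 5.49 FPKM in WT cells (SD, n = 4 each; log2 fold change -5.64, limma adjusted p = 2.40e-08), CYP1A1 had -0.68 and NQO1 had 0.80, with a list median of -0.30. None of the 3 tested in CT26 was called, and their median was 0.023. NAD supply genes, which provide the substrate, fell for 5 of 6 and rose for 1 in MDA-MB-231 (all genes, 25.7% and 42.6%), including NMRK1 at -1.45 and NAPRT at -1.09, with a list median of -0.67. In CT26 2 of 4 rose (all genes, 22.3%), including Nampt at 0.51, with a list median of 0.12.

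The genes outside the family most like the interferon-linked mean profile were found by the root mean square difference over the 8 libraries of a line, in log2 units from the WT mean. In MDA-MB-231 the nearest was C19orf66 (0.0647), followed by STBD1, RHBDF2, ITPR3 and SLC22A23. In CT26 the nearest was Eif2ak2 (0.0252), followed by Mex3c, Gm10499, Txndc9 and Kif11. C19orf66 had a log2 fold change of -1.23 and Eif2ak2 of -0.61, next to profile means of -1.24 and -0.59.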

How the data were processed

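Total RNA of 16 libraries was measured, 4 in each of 4 groups set by the labelled genotype and line. Per the submitters' processing notes, bcl2fastq 2.18, STAR 2.5.4a, Cufflinks 2.2.1 and Cuffdiff were used, with builds hg38 and mm10. Annotation, strandedness and Cuffdiff's options are not given in the sources used. The authors deposited a separate table for each line, of FPKM per gene and library, together with their q-value per gene, and levels were never compared between tables.

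From these values, log2(FPKM + 1) was computed, and a gene was tested where 4 or more of the 8 libraries of its line reached an FPKM of 1. The test was limma 3.58.1 (R 4.3.3) with a mean-variance trend, group as the only term and Benjamini-Hochberg adjustment over all genes tested. The difference between lines was a contrast in a fit over all 16 libraries. No reads were available as counts, so depth was estimated from the steps between low FPKM values of genes below 0.5 FPKM in every library, relative to WT replicate 1, and the most common ratio held only 12.7 to 22.7% of those genes. Counting error at low FPKM is larger in the shallower libraries, chiefly the MDA-MB-231 KO.

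The members, gene lists, tests and naming rule were chosen with earlier results of these data known. Named were every member, up to 3 genes per list and line by adjusted p, identity markers, the targeted gene, the 5 most alike genes per line and genes next to a member; a few items that the rule would name are not reported here. The fits were checked on simulated data. Alternatives were the pseudocount (0.1 and 5), no filter, a mean of at least 5 FPKM, upper-quartile scaling, quantile normalization, centring on 20 Mb windows, a replicate block and leaving out each library. Coordinates are those of GENCODE 29 (hg38) or of the deposited loci (mm10), and promoter windows are RefSeq's (GRCh38.p14). Python 3.11.15, numpy 2.4.6, pandas 2.3.3 and matplotlib 3.10.9 were used.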

Additional observations from a re-analysis of the deposited data

Results flagged for a closer look

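Among the 44 groups of 4 libraries examined (the 10 members and the targeted gene), 4 member values stood far from the other 3 of their group, and chance alone flags about 1 in 20 groups. PARP12 read 10.97 FPKM in KO replicate 3 of MDA-MB-231. That library also had the highest KO values of PARP10, PARP14 and ZC3HAV1, but not of PARP9 or DTX3L. Parp10 read 51.4 FPKM and Parp3 26.0 FPKM in WT replicate 4 of CT26. Zc3hav1 read 35.3 FPKM in KO replicate 3 of CT26, in a group whose spread was small.

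The response differed between the lines, by limma's test of the difference itself, for 7 of the 10 genes, against 72.2% of all paired genes. Differences are given as MDA-MB-231 minus CT26. The difference was 1.70 for PARP1, -1.49 for PARP10, -1.40 for PARP12, -0.60 for ZC3HAV1, -0.50 for PARP9, 0.40 for PARP2 and -0.30 for TIPARP. PARP1 moved in opposite directions, higher in all 4 KO libraries of MDA-MB-231 and lower in all 4 of CT26 than in any WT library. The fall in CT26 was shared by its surroundings. After centring on 20 Mb windows the log2 fold change was -0.026 there (limma adjusted p = 0.525) and 1.15 in MDA-MB-231 (limma adjusted p = 2.81e-07).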

How the results depend on the processing

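The calls of the 6 interferon-linked genes in each line held under every alternative that tested them, and the stricter filter left out PARP9 and DTX3L in MDA-MB-231. Centring on 20 Mb windows changed the counts of DNA repair PARPs: 1 was lower in MDA-MB-231, 0 were higher and 0 lower in CT26. It turned PARP3 in MDA-MB-231 to -0.26, as upper-quartile scaling did to -0.052, and the cause was not tested. Of the differences between lines, DTX3L turned to -0.59 after window centring, -0.25 after upper-quartile scaling, -0.037 with a pseudocount of 0.1 and -0.037 after quantile normalization, PARP14 to -0.51 after window centring and -0.18 after upper-quartile scaling, and PARP3 to -0.24 and -0.0045. Leaving out 1 library at a time gave -0.064 to 0.069 for DTX3L and -0.056 to 0.19 for PARP14. Upper-quartile scaling moved the median of all genes in MDA-MB-231 to -0.0092. The deviations of same-numbered libraries had correlations of -0.037 to 0.0044 in MDA-MB-231 and 0.027 to 0.078 in CT26, all 4 positive there, where each KO library also correlated best with its own number. The samples were not taken as pairs, since the labels name no shared source and the correlations are under 0.1. With the replicate block 3622 genes were lower and 6026 higher in MDA-MB-231 and 3641 and 2391 in CT26, and of the member calls it ended that of TIPARP in MDA-MB-231 (limma adjusted p = 0.0690). Depth limits the low genes most, such as PARP9 in MDA-MB-231.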
